A study of Mus musculus with 6 samples.

Results

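To examine how glutathione synthesis and cystine import were expressed during osteoclast differentiation, 9 genes were taken by symbol from the 24940 genes of the deposited expression table: Slc7a11 and Slc3a2, Gclc, Gclm and Gss, Gsr, Glrx, Gpx1 and Gpx4. All 9 were found, and all 9 passed the filter on low values described below, Slc7a11 only through its level in R+LE, the condition where it is highest. The measured cells were bone marrow-derived macrophages (BMMs), which are primary mouse marrow cells grown in M-CSF and used as osteoclast precursors. RANKL is the cytokine that drives them toward osteoclasts, and LE is a methanolic extract of the leaves of the shrub Abeliophyllum distichum. Cultures labelled -R held M-CSF (30 ng/mL) only, those labelled +R also held RANKL (100 ng/mL), and those labelled R+LE held RANKL (100 ng/mL) with LE (10 μg/mL). M-CSF was thus common to every culture, each culture lasted 3 days, and 2 libraries were sequenced per condition, 6 in all. The labels give C57BL/6 mice of 6 to 8 weeks, whereas the methods of the study describe ICR mice, so the strain is uncertain. Nothing in the labels states that the 2 libraries of a condition came from separate cultures or animals, so every p-value here measures only the spread between libraries, which may be technical.

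Glutathione is a tripeptide of glutamate, cysteine and glycine and the main small thiol of the cell. Cysteine enters many cells as cystine through a transporter built from the light chain Slc7a11 (xCT) and the heavy chain Slc3a2 (CD98hc), in exchange for glutamate. The rate-limiting step of synthesis is carried out by glutamate-cysteine ligase, a dimer of the catalytic subunit Gclc and the modifier subunit Gclm, and glutathione synthetase (Gss) adds glycine. Glutathione peroxidases such as Gpx1 and Gpx4 spend glutathione on hydrogen peroxide and lipid peroxides, glutaredoxin (Glrx) uses it to release protein thiols, and glutathione reductase (Gsr) regenerates it with NADPH. Reactive oxygen species are produced when macrophages respond to RANKL.

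Values are reads per kilobase of transcript per 1000000 mapped reads (RPKM), which are per length and so can be set side by side between genes. Whole reads recovered from them gave 29390211 to 34846378 mapped reads per library, of which 74.2% to 80.7% lay on genes. The ribosomal precursor entry Rn45s took 4.97% to 6.83% of gene reads in -R and 10.9% to 13.5% in the other 4 libraries. The summed level of 8 osteoclast markers was 43.2 to 44.8 RPKM in -R, 1866 to 2123 in +R and 329 to 380 in R+LE, and that of 6 macrophage markers was 1395 to 1502, 792 to 902 and 703 to 855 RPKM, with every gene of both lists detected. Of other cell types, 7 neutrophil markers, all of them detected, summed to 15.6 to 17.3 RPKM in -R, 0.716 to 0.816 in +R and 0.592 to 2.52 in R+LE. The 6 stromal or osteoblast markers, also all detected, summed to 15.2 to 16.9, 10.9 to 15 and 8.13 to 9.05 RPKM. B-cell markers (4 of 4 detected) reached at most 1.93 RPKM and T-cell markers (3 of 4 detected, Cd3e at 0) at most 0.221 RPKM. The part of these differences in the results below was not tested. In bulk RNA, fewer cells of a type and less RNA per cell cannot be told apart.

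The genes spanned a wide range of levels. In -R the order was Gpx1, Glrx, Gpx4, Slc3a2, Gclm, Gsr, Gclc, Gss and Slc7a11, with mean levels from 589.7 down to 0.383 RPKM, and of the neighbours in this order only Gsr and Gclc overlapped between their libraries. In +R the order was Gpx1, Gpx4, Glrx, Slc3a2, Gsr, Gclm, Gss, Gclc and Slc7a11, and no neighbours overlapped. In R+LE the order was Gpx1, Gpx4, Gclm, Glrx, Gsr, Slc3a2, Gclc, Gss and Slc7a11, and of the neighbours only Gclm and Glrx overlapped. Among the 11595 tested genes, mean Gclm levels had ranks 493 (-R), 3673 (+R) and 513 (R+LE), and those of Gclc had ranks 1068, 4699 and 2343.

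**Figure D1:**
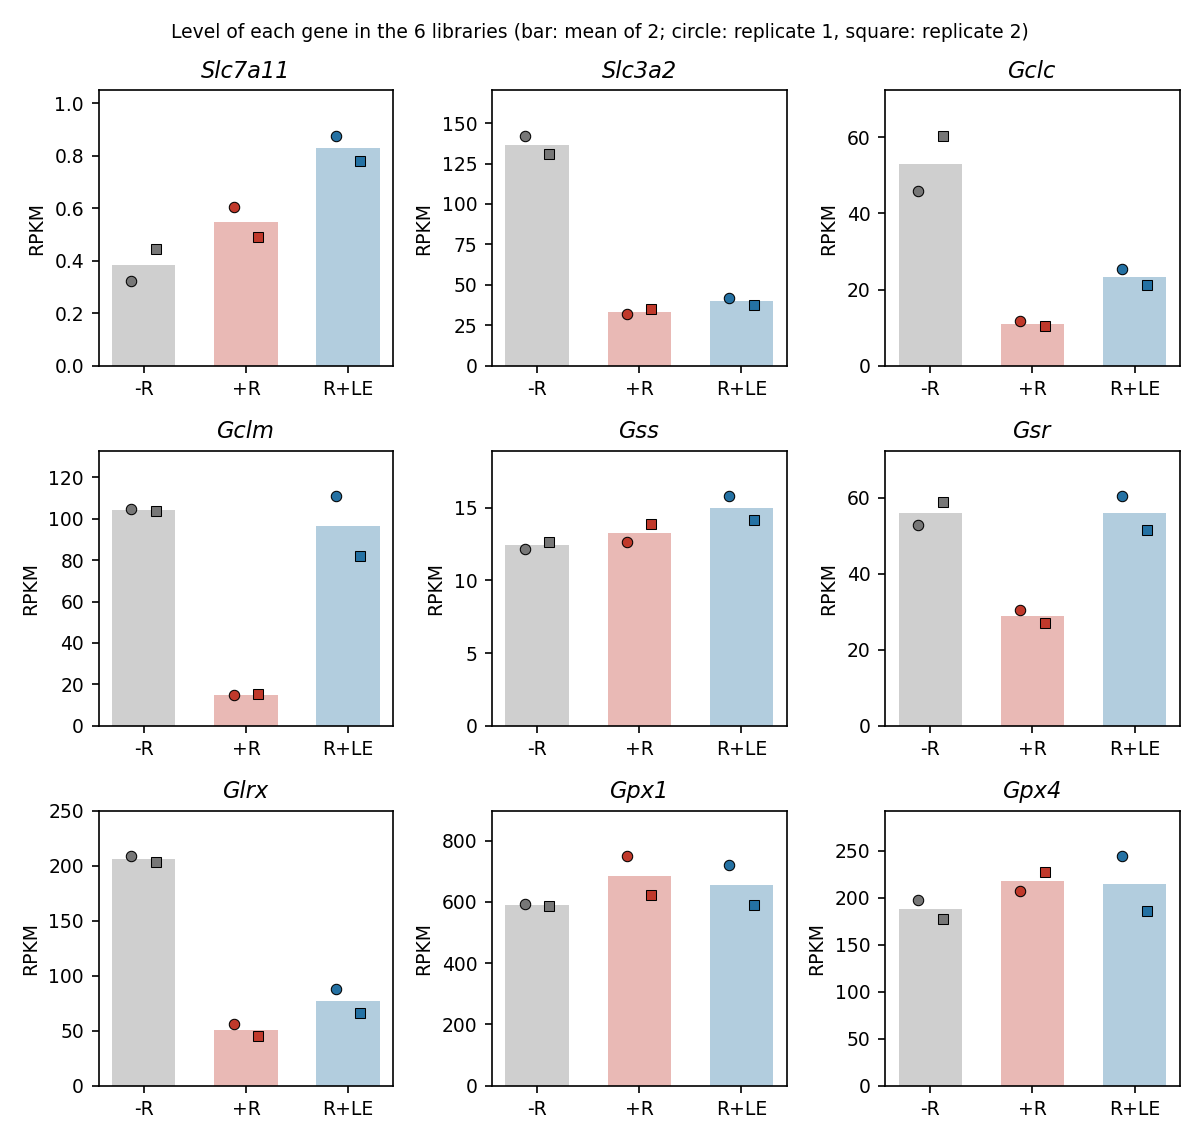
Level of each of the 9 genes in RPKM (vertical axes from 0, scaled per gene) in -R, +R and R+LE. Bars are means of 2 libraries, circles are replicate 1 and squares replicate 2. Gclm lies at 104.2, 15.1 and 96.4 RPKM on average, Slc3a2 stays low in R+LE (39.8 RPKM), and Gpx1 and Gpx4 differ little.

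For the comparisons, log2(RPKM + 0.5) was tested with limma for the 11595 genes that averaged 0.5 RPKM or more, with Benjamini-Hochberg adjustment over all of them. A gene passed at an adjusted p below 0.05 and was called where it also differed by at least 2-fold. RANKL lowered much of the set: in +R against -R, 5 of the 9 genes passed and all 5 were lower (Gclm, Gclc, Glrx, Slc3a2 and Gsr), against 21.5% of all tested genes that passed as lower. Of these, 4 were called, against 8.92% of all tested genes. None passed as higher, against 23.9%, and 0 did so at an unadjusted p below 0.05 or with limma-voom on the recovered reads, whereas quantile normalization gave 1 (Gpx4). LE raised part of it: 4 of the 9 passed in R+LE against +R, and all 4 were higher (Gclm, Gclc, Gsr and Glrx), against 5.19% of all tested genes that passed as higher, and 2 were called (Gclm and Gclc), against 1.46%. Against -R, 3 of the 9 were lower and called in R+LE (Slc3a2, Glrx and Gclc), against 19.0% of all tested genes that passed as lower and 6.36% that were called lower, and none passed as higher, against 15.3%, although 1 (Slc7a11) did so at an unadjusted p below 0.05 and with voom. The median log2 fold change of the 9 genes was -0.95, 0.34 and -0.00 in these comparisons, beside 0.05, -0.05 and -0.01 over all tested genes. The +R libraries enter both of the first comparisons, so a low +R library would lower the first and raise the second. The 9 genes were chosen with earlier results of these data known, so the shares give a scale and are no test of the set.

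For all 9 genes the libraries of the compared conditions did not overlap in +R against -R, as for 75.2% of all tested genes in either direction. For Gss this rests on 12.64 against 12.641 RPKM, well within the counting errors of 3.54% and 3.77%. The libraries did not overlap for 7 genes in R+LE against +R (49.0% of all tested genes) and for 5 in R+LE against -R (65.5%). With 2 libraries per condition, absence of overlap is therefore common, and the tests below rest on the spread that limma estimated across genes.

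**Figure D2:**
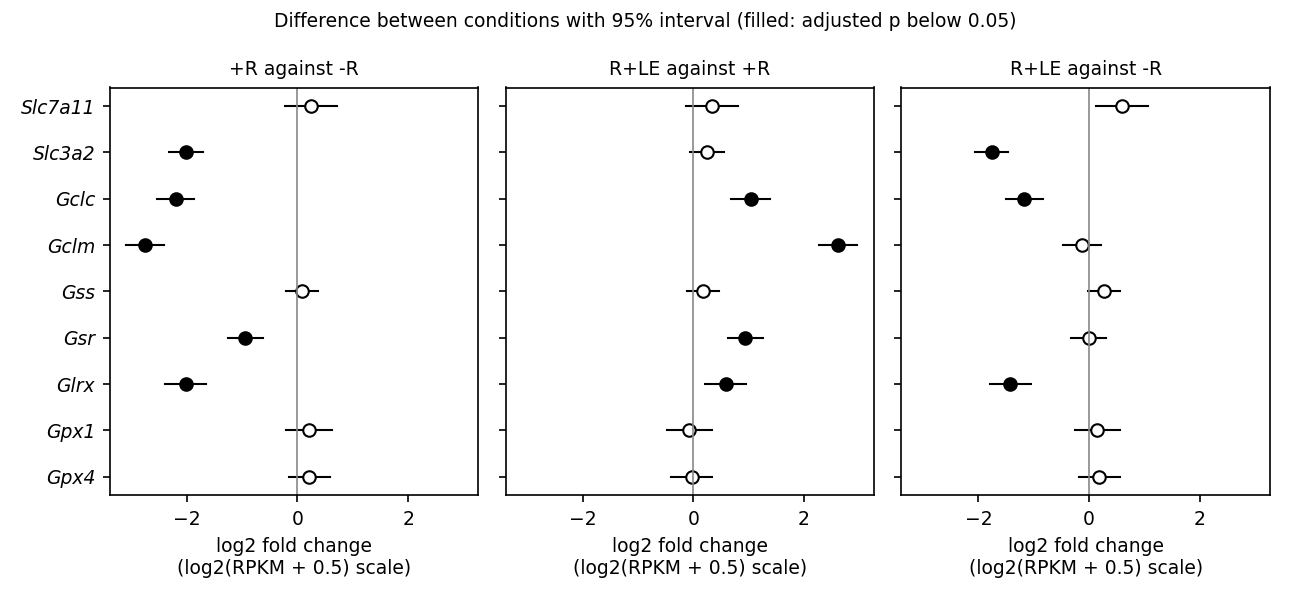
Log2 fold change (horizontal axis, on the log2(RPKM + 0.5) scale) with its 95% interval for each of the 9 genes, with 1 panel per comparison of conditions (+R against -R first, R+LE against -R last). Filled points passed at an adjusted p below 0.05. Gclm lies at -2.75, 2.62 and -0.13, and the Gss, Gpx1, Gpx4 and Slc7a11 points are open throughout.

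To describe the sequence upstream of these genes, the 250 bases before the transcription start were taken from RefSeq (GRCm38.p6, the mm10 assembly). Of the 9 genes 7 had an entry there, all but Gclc and Gsr. Motifs were searched on both strands: TGACNNNGC, the core of the antioxidant response element, TGANTCA, the AP-1 site, and TGATGNAA, the C/EBP-ATF composite site. Their letters occurred in 10.2%, 6.75% and 3.45% of 32851 windows of the same length. The antioxidant and AP-1 letters can share bases, but none of the 7 windows held more than 1 kind. The windows of Gclm, Slc7a11 and Glrx are shown because they hold the matches, which are in capitals, 5′ to 3′ on the strand of the gene. Gclm is read from chr3:122245307-122245556 (plus strand), Slc7a11 from chr3:50443614-50443863 (minus strand) and Glrx from chr13:75839636-75839885 (plus strand).
Gclm: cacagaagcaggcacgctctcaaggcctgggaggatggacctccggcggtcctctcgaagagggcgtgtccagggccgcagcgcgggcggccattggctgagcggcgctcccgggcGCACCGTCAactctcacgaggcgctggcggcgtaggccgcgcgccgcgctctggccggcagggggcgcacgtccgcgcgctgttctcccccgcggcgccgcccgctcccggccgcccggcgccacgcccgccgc
Slc7a11: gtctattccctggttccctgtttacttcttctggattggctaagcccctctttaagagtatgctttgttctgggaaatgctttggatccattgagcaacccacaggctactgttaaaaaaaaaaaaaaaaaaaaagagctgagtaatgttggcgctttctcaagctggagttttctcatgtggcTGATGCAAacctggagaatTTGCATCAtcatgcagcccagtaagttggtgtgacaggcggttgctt
Glrx: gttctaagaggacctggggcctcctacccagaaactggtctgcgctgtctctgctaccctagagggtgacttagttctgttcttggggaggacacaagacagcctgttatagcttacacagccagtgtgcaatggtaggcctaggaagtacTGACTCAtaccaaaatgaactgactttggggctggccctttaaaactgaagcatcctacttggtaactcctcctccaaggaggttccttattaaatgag
The capitals of Gclm are the reverse complement of the antioxidant core, from -134 to -126 relative to the start. Slc7a11 held the composite letters from -66 to -59 and, in reverse complement, from -47 to -40, and the AP-1 letters of Glrx, which read alike on both strands, lay from -99 to -93. The windows of Slc3a2, Gss, Gpx1 and Gpx4 held none of these letters. For Gpx4 the start used lay 77 nt downstream of that of the counted transcript, so its window lies partly within the span of that transcript. Such matches describe the sequence and do not show binding, and their part in the differences between conditions was not tested.

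Cystine import was examined first. Slc7a11 (chromosome 3, 50364936 to 50443613, minus strand, mm10), the cystine-binding light chain, was barely expressed, at 0.321 and 0.445 RPKM (-R), 0.605 and 0.491 (+R) and 0.873 and 0.781 (R+LE), from 87 to 254 reads per library. Each condition lay above the one before it without overlap, yet in -R only 2.01% of tested genes had a lower level. No comparison of Slc7a11 passed. The log2 fold change was 0.25 in +R against -R (95% interval -0.22 to 0.72, adjusted p = 0.384) and 0.34 in R+LE against +R (-0.13 to 0.81, adjusted p = 0.411). Between R+LE and -R it was 0.59 (0.12 to 1.06, adjusted p = 0.0517), and the mean level in RPKM was 2.16 times as high. These log2 values understate the ratio of so low a gene. Voom on the recovered reads, which works on counts, gave 0.60 (adjusted p = 0.0449) for R+LE against +R. For R+LE against -R voom gave 1.11 (adjusted p = 1.89e-05). Slc7a11 passed the filter only through R+LE, where it is highest, so these tests are no independent support for a difference. A stretch of the Slc7a11 3′ UTR, positions 3399 to 3770 of the 9223 nt transcript, matched the tubulin transcript Tuba1b on the opposite strand at 96.2% over 373 nt, and reads were counted without regard to strand. The same stretch also matched Tuba1a (96.0%), Tuba1c (95.4%) and 6 other transcripts. Tuba1b lay at 323.8, 330.4 and 343.7 RPKM in -R, +R and R+LE, far above Slc7a11, and passed in none of the comparisons, as did Tuba1c at 82.3, 92.6 and 91.6 RPKM. Tuba1a, at 22, 16.4 and 17.7 RPKM, passed as lower in +R against -R (log2 fold change -0.41, adjusted p = 0.0392). The part of such reads in the Slc7a11 level was not tested, so its level is uncertain.

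Slc3a2 (chromosome 19, 8706882 to 8713897, minus strand), the heavy chain that carries Slc7a11 and other amino acid transporters to the membrane, was abundant before RANKL. It measured 142 and 131 RPKM (-R), 32.0 and 35.0 (+R) and 42.0 and 37.7 (R+LE). Both -R libraries stood far above the other 4, and the R+LE libraries lay just above those of +R. Slc3a2 fell 4.03-fold with RANKL (log2 fold change -2.01 ± 0.14 SE, adjusted p = 2.46e-08). With LE the difference from +R was 0.25 (95% interval -0.06 to 0.55, adjusted p = 0.345), and R+LE remained 3.39-fold below -R (log2 fold change -1.76 ± 0.14, adjusted p = 1.80e-07). Of the 4 genes that RANKL lowered by at least 2-fold, Slc3a2 was thus the one that did not pass in R+LE against +R. Glrx passed there only narrowly (limma, adjusted p = 0.0355) and not under every alternative given further on. Its interval, 0.22 to 0.96, overlapped that of Slc3a2, and no test compared these genes.

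Slc3a2 also pairs with other light chains, of which 4 of 5 were tested. In +R against -R, 1 passed as higher and 2 as lower, beside 23.9% and 21.5% of all tested genes. In R+LE against +R, 1 passed as higher, beside 5.19%. Slc7a8 (LAT2, a neutral amino acid exchanger) measured 125 and 137 RPKM (-R), 15.2 and 14.5 (+R) and 26.6 and 28.2 (R+LE). It fell with RANKL (log2 fold change -3.10, adjusted p = 1.31e-10) and was higher by 0.86 with LE (adjusted p = 0.000634). Slc7a7 (y+LAT1, which exports cationic amino acids) measured 32.2 and 31.1 RPKM (-R), 5.30 and 4.84 (+R) and 5.56 and 4.58 (R+LE). It fell with RANKL (log2 fold change -2.53, adjusted p = 1.39e-09), and its +R and R+LE libraries overlapped.

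The ligase subunits both passed in +R against -R and in R+LE against +R. Gclc (chromosome 9, 77754535 to 77794489, plus strand), the catalytic subunit, measured 45.8 and 60.3 RPKM (-R), 11.7 and 10.4 (+R) and 25.3 and 21.1 (R+LE). The 3 conditions did not overlap, with R+LE between the others. Gclc fell 4.60-fold with RANKL (log2 fold change -2.20 ± 0.16, adjusted p = 2.85e-08) and was 2.05-fold higher with LE than with RANKL alone (1.04 ± 0.16, 95% interval 0.69 to 1.38, adjusted p = 0.000477). It nevertheless stayed 2.25-fold below -R (log2 fold change -1.17, 95% interval -1.51 to -0.83, adjusted p = 4.04e-05).

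Gclm (chromosome 3, 122245557 to 122267215, plus strand), the modifier subunit that raises the affinity of the enzyme for glutamate, differed by more than Gclc in both. Its level was 105 and 104 RPKM (-R), 14.9 and 15.2 (+R) and 111 and 82.0 (R+LE). The +R libraries were the lowest by a wide margin, and the R+LE libraries lay on either side of those of -R. Gclm fell 6.73-fold with RANKL (log2 fold change -2.75 ± 0.16, 95% interval -3.09 to -2.41, adjusted p = 2.03e-09) and was 6.16-fold higher with LE than with RANKL alone (2.62 ± 0.16, 95% interval 2.28 to 2.96, adjusted p = 8.73e-08). Against -R the R+LE difference was -0.13 (95% interval -0.47 to 0.21, adjusted p = 0.574), which leaves room for a moderate change in either direction. All annotated exons of Gclm, 2774 bases, share 296 bases with Gm17494 on the opposite strand. They share 244 bases with the pseudogene Gm6061 on the same strand. Reads on shared bases could not be assigned to 1 gene. The counted transcript has 2063 nt, and how many of the shared bases it holds was not tested.

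To compare the subunits with each other, their ratio was taken in each library. The ratio of Gclm to Gclc, both in RPKM, was 2.29 and 1.72 (-R), 1.28 and 1.46 (+R) and 4.38 and 3.88 (R+LE). Both R+LE libraries exceeded every other library, and both +R libraries were below those of -R. On the log2 scale the ratio differed by -0.54 in +R against -R, by 1.59 in R+LE against +R and by 1.06 in R+LE against -R. For 2 libraries against 2, the two-sided exact permutation test gave p = 0.333 in each of the 3 comparisons, which is the smallest p it can give. The ratio of Slc7a11 to Slc3a2 was 0.00226 and 0.0034 (-R), 0.0189 and 0.014 (+R) and 0.0208 and 0.0207 (R+LE), again with p = 0.333 by the exact permutation test for each comparison. Its difference between R+LE and +R was 0.35 on the log2 scale, and with 0.5 RPKM added to both genes it was 0.10 and the libraries overlapped (p = 1, exact permutation test).

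**Figure D3:**
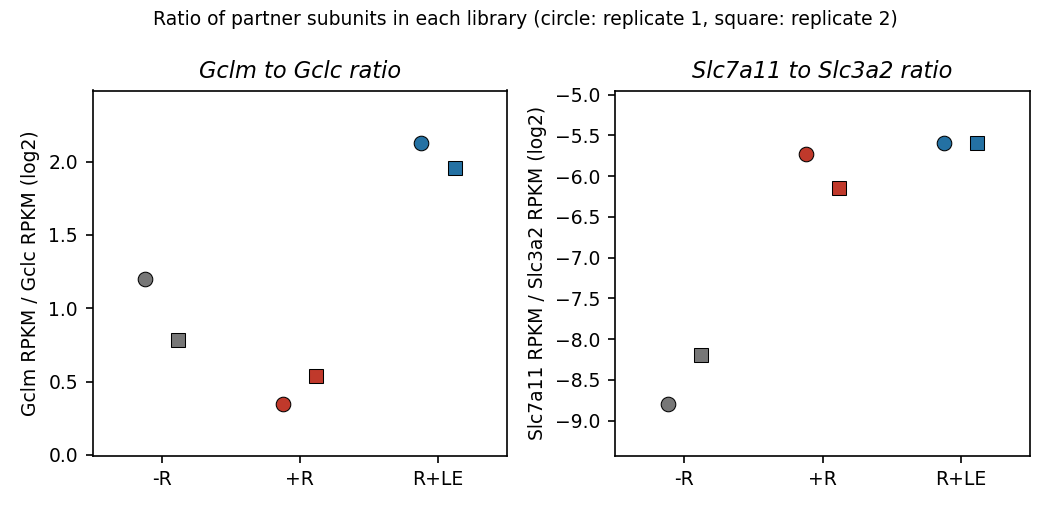
Ratio of RPKM values on a log2 axis for Gclm over Gclc (left) and Slc7a11 over Slc3a2 (right) in each of the 6 libraries, with circles for replicate 1 and squares for replicate 2. The left ratio is highest in R+LE (2.13 and 1.96) and lowest in +R (0.35 and 0.54), and the right ratio is lowest in -R (-8.79 and -8.20).

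Gss (chromosome 2, 155563181 to 155592810, minus strand), which completes the tripeptide, varied little. It measured 12.2 and 12.6 RPKM (-R), 12.6 and 13.9 (+R) and 15.8 and 14.2 (R+LE). The conditions lay in this order by small steps, and -R and +R touched (12.64 RPKM in -R replicate 2, 12.641 in +R replicate 1). The log2 fold change was 0.09 in +R against -R (95% interval -0.20 to 0.38, adjusted p = 0.607), 0.17 in R+LE against +R (-0.12 to 0.46, adjusted p = 0.541) and 0.26 in R+LE against -R (-0.03 to 0.55, adjusted p = 0.157). All annotated exons of Gss, 5915 bases, share 395 bases with Acss2 on the opposite strand. They share 322 and 385 bases with the antisense genes Gssos1 and Gssos2, also on the opposite strand. The counted transcript has 1814 nt, and how many of the shared bases it holds was not tested, so its values are uncertain.

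Regeneration of glutathione by Gsr (chromosome 8, 33653238 to 33698162, plus strand) was examined next. Gsr measured 53.0 and 58.9 RPKM (-R), 30.6 and 27.1 (+R) and 60.4 and 51.5 (R+LE). The +R libraries were below the other 4, and the R+LE libraries enclosed those of -R. Gsr fell 1.93-fold with RANKL (log2 fold change -0.95 ± 0.15, adjusted p = 9.51e-05) and was 1.92-fold higher with LE than with RANKL alone (0.94 ± 0.15, 95% interval 0.63 to 1.26, adjusted p = 0.000543). The means in R+LE and -R were both 56 RPKM, with a log2 difference of -0.002 (95% interval -0.32 to 0.31, adjusted p = 0.994).

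Glrx (chromosome 13, 75839886 to 75850151, plus strand), the cytosolic glutaredoxin that reduces glutathionylated proteins, measured 209 and 203 RPKM (-R), 56.0 and 45.3 (+R) and 88.0 and 65.7 (R+LE). The 3 conditions did not overlap. Glrx fell 4.05-fold with RANKL (log2 fold change -2.02 ± 0.17, adjusted p = 1.55e-07). With LE it was 1.5-fold higher than with RANKL alone (0.59 ± 0.17, 95% interval 0.22 to 0.96, adjusted p = 0.0355) and stayed 2.70-fold below -R (log2 fold change -1.43, adjusted p = 1.05e-05). The LE difference was the least secure of those that passed: without +R replicate 2 it was 0.44 (adjusted p = 0.312) and without R+LE replicate 1 it was 0.38 (adjusted p = 0.117), with other losses given further on.

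The peroxidases were examined last. Gpx1 (chromosome 9, 108339080 to 108340342, plus strand), which reduces hydrogen peroxide in the cytosol, measured 592 and 587 RPKM (-R), 749 and 622 (+R) and 721 and 589.7 (R+LE), ranks 68, 84 and 77 of the tested genes by the means of -R, +R and R+LE. Gpx4 (chromosome 10, 80053488 to 80056439, plus strand), which reduces lipid hydroperoxides in membranes, measured 197 and 177 RPKM (-R), 207 and 227 (+R) and 244 and 186 (R+LE). The R+LE libraries of both genes overlapped those of -R and of +R, and the replicates within R+LE differed more than the conditions did.

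Neither peroxidase passed in any comparison, although with quantile normalization Gpx4 passed as higher in +R against -R (log2 fold change 0.29, adjusted p = 0.0382). For Gpx1 the log2 fold change was 0.21 in +R against -R (95% interval -0.20 to 0.62, adjusted p = 0.393) and -0.07 in R+LE against +R (-0.47 to 0.34, adjusted p = 0.9). For Gpx4 these were 0.21 (-0.16 to 0.58, adjusted p = 0.341) and -0.03 (-0.40 to 0.34, adjusted p = 0.954). The intervals leave room for changes of up to 0.62 on the log2 scale, and the sign of several of these values turned with the scaling. The Gpx4 transcript matches the pseudogene Gpx4-ps2 at 99.7% over 762 nt, so its value may include reads of such copies.

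The genes with a pattern most like those of the called members in R+LE against +R were sought by the root mean square difference of log2(RPKM + 0.5) over the 6 libraries, each gene centred on its mean. For Gclc these were Ggta1 (0.10), C5ar1 (0.11) and Lhfpl2 (0.11). Ggta1 averaged 24.7, 5.82 and 11.9 RPKM in -R, +R and R+LE, against 53, 11 and 23.2 RPKM for Gclc. For Gclm the nearest gene was Serpinb9b (0.16), at 5.55, 0.331 and 4.40 RPKM, and the next, Slc11a1 (0.32) and Rnf128 (0.33), were farther away. The +R level of Serpinb9b lay below the 0.5 RPKM added, which shrinks its fold differences. In RPKM alone they were larger than those of Gclm, at 104.2, 15.1 and 96.4 RPKM, so the closeness of this match rests on the addition. The likeness is over 6 libraries of 3 conditions and describes levels only.

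To place these genes, 67 other genes of glutathione and thiol metabolism in 9 lists were examined, of which 50 were tested. In +R against -R, 14 passed as higher and 13 as lower, beside 23.9% and 21.5% of all tested genes. After LE was added to RANKL, 9 passed as higher and 5 as lower, beside 5.19% and 6.86% of all tested genes. Between R+LE and -R, 8 passed as higher and 7 as lower, beside 15.3% and 19.0%. The median log2 fold change of the 50 genes was 0.11, 0.03 and 0.11 in these comparisons. Several lists held genes that passed in opposite directions. The counts of single lists further on are to be read beside the same shares.

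NADPH is the reductant that Gsr requires. Of 6 genes of NADPH supply, all tested, 3 passed as lower and 1 as higher in +R against -R. The shares of all tested genes were 21.5% and 23.9%. In R+LE against +R, 3 passed as higher and 1 as lower, beside 5.19% and 6.86%. All 3 higher genes were called, beside 1.46% of all tested genes. G6pdx and Pgd, the dehydrogenases of the pentose phosphate pathway, and Me1, cytosolic malic enzyme, were those that fell with RANKL and were higher with LE. G6pdx measured 129 and 141 RPKM (-R), 68.8 and 61.9 (+R) and 163 and 129 (R+LE) (log2 fold change of R+LE against +R 1.15 ± 0.16, adjusted p = 0.000221). Pgd measured 501 and 446 RPKM (-R), 196 and 165 (+R) and 472 and 355 (R+LE) (1.18 ± 0.19, adjusted p = 0.000573). Me1 measured 11.7 and 11.9 RPKM (-R), 4.85 and 4.39 (+R) and 11.7 and 10.3 (R+LE) (1.17 ± 0.14, adjusted p = 3.94e-05). For these 3 genes the +R libraries were the lowest, and none of the 3 passed in R+LE against -R. Idh2, the mitochondrial isocitrate dehydrogenase, went the other way, at 28.4 and 29.2 RPKM (-R), 66.4 and 51.3 (+R) and 41.7 and 35.0 (R+LE) (R+LE against +R -0.61 ± 0.16, adjusted p = 0.0197).

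The thioredoxin and peroxiredoxin system works beside glutathione. All 12 of its genes were tested. In +R against -R, 4 passed as higher and 4 as lower, beside 23.9% and 21.5% of all tested genes. In R+LE against +R, 3 passed as higher, beside 5.19%. Prdx1, an abundant cytosolic peroxidase, measured 864 and 886 RPKM (-R), 243 and 174 (+R) and 607 and 477 (R+LE) (R+LE against +R 1.39 ± 0.20, adjusted p = 0.000287). Srxn1 (sulfiredoxin), which repairs overoxidized peroxiredoxins, measured 63.0 and 65.4 RPKM (-R), 24.6 and 21.2 (+R) and 80.4 and 62.1 (R+LE) (1.61 ± 0.16, adjusted p = 7.31e-06). Both fell with RANKL, with log2 fold changes of -2.09 for Prdx1 and -1.47 for Srxn1 (adjusted p = 6.38e-07 and 2.05e-06). In R+LE against -R, Prdx1 remained lower (-0.70, adjusted p = 0.0139), and Srxn1 did not pass (0.14, adjusted p = 0.538). Prdx5, a peroxidase of mitochondria and peroxisomes, measured 223 and 194 RPKM (-R), 62.1 and 60.9 (+R) and 86.9 and 64.0 (R+LE). It fell with RANKL (log2 fold change -1.75, adjusted p = 6.40e-07), and R+LE stayed below -R (-1.47, adjusted p = 6.62e-06).

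**Figure D4:**
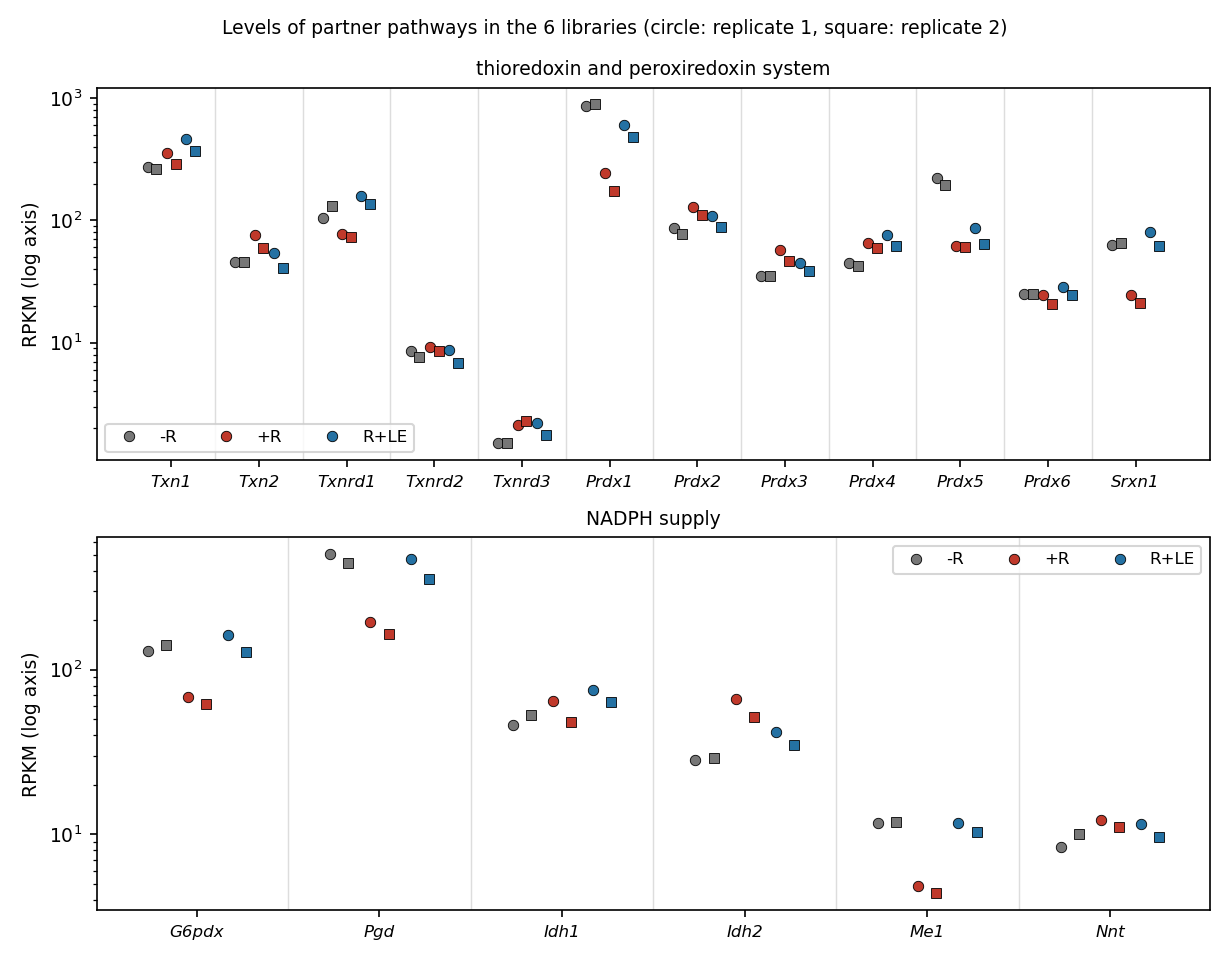
Levels in RPKM (log axis) of the 12 genes of the thioredoxin and peroxiredoxin system (top) and the 6 genes of NADPH supply (bottom) in each library, coloured by condition, with circles for replicate 1 and squares for replicate 2. For Prdx1, Srxn1, G6pdx, Pgd and Me1 the +R libraries are the lowest, and for Idh2 they are the highest.

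In +R against -R, genes of glutathione breakdown passed in both directions, and those of cysteine and glutamate supply only as higher. In R+LE against +R, 1 breakdown gene and 2 supply genes passed, all as lower. At an unadjusted p below 0.05 in limma, however, 2 breakdown genes were higher and 1 was lower, and 0 breakdown genes passed as higher with voom. Of 13 breakdown genes 6 were tested, with 2 higher and 1 lower in +R against -R and 1 lower in R+LE against +R. Chac1, which cleaves glutathione in the cytosol, measured 0.696 and 0.458 RPKM (-R), 2.91 and 3.52 (+R) and 0.546 and 0.588 (R+LE), so that only the +R libraries were high. It rose with RANKL (log2 fold change 1.79 ± 0.20, adjusted p = 3.10e-06) and was lower with LE (-1.80 ± 0.20, adjusted p = 2.40e-05). These values, like those of Cth, understate the ratio at so low a level, since the mean RPKM of +R was 5.57 times that of -R and 5.67 times that of R+LE. Anpep, a surface aminopeptidase, measured 73.9 and 76.0 RPKM (-R), 15.2 and 13.5 (+R) and 16.0 and 14.7 (R+LE). It fell with RANKL (log2 fold change -2.35, adjusted p = 2.46e-09), and its +R and R+LE libraries overlapped.

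Of 10 supply genes 5 were tested, with 2 higher in +R against -R and 2 lower in R+LE against +R. Cth, which makes cysteine from cystathionine, was low and passed the filter only through +R, where it was highest, at 0.152 and 0.225 RPKM (-R), 2.02 and 1.28 (+R) and 0.815 and 0.294 (R+LE). The log2 fold change of Cth was 1.62 ± 0.27 in +R against -R (adjusted p = 0.000151) and -1.05 ± 0.27 in R+LE against +R (adjusted p = 0.0171). Because Cth was tested only through its +R level, these tests are no independent support for a difference. The same holds for its place in the counts of supply genes. The mean RPKM of +R was 8.75 times that of -R and 2.97 times that of R+LE. Slc1a5, a glutamine transporter, measured 13.4 and 13.3 RPKM (-R), 50.0 and 50.2 (+R) and 27.3 and 29.0 (R+LE). It rose with RANKL (1.87 ± 0.13, adjusted p = 2.37e-08) and was lower with LE (-0.82 ± 0.13, adjusted p = 0.000713), with R+LE between the other conditions.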

How the data were processed

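BMMs were sequenced as paired ends of 100 bp, 2 libraries for each of -R, +R and R+LE, grouped by the sample labels. The authors aligned reads to mm10, with TopHat per the methods of the study and HISAT2 per the submitters' processing notes (versions are not given in the sources used here), and counted exon reads with HOMER on either strand, with 1 transcript per gene. They deposited the values as RPKM, under column titles that say FPKM. All value columns were used, and 26 symbols turned into dates were restored from transcript identifiers.

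The 9 genes, the pathway and marker lists and the tests were chosen with earlier results of these data known. limma 3.58.1 (R 4.3.3; empirical Bayes with a variance trend) fitted the 3 conditions of all 6 libraries together on log2(RPKM + 0.5), for the 11595 genes that averaged 0.5 RPKM or more. Every member was named, and of the lists each gene called in R+LE against +R or +R against -R, at most 5 per list; other names were chosen after their values were seen. Exact permutation tests used scipy 1.17.1, tables and figures pandas 2.3.3, numpy 2.4.6 and matplotlib 3.10.9 in Python 3.11.15, and copies were sought with blastn 2.17.0+ at 95% identity over at least 200 nt of GENCODE transcripts. On simulated data for R+LE against +R with 11587 genes, 84.2% of 95 genes changed 2-fold passed. Of 105 genes changed 4-fold, 98.1% passed, as did 21 unchanged genes. Every gene was simulated with the same spread beyond counting noise. The 95% intervals held the simulated fold for 87.4% and 67.6% of the changed genes. The 0.5 RPKM added in the fit draws low genes toward 0, so these shares do not measure interval width alone. The printed intervals can thus miss the fold of low genes or be too narrow. Whole reads were recovered within 0.15 of an integer for 100.00% of the values checked, which gave the depth of each library. Counting error for the 9 genes was at most 10.7% of a value (Slc7a11) and covers counting only. Libraries of a condition differed beyond counting noise (mean chi-square per gene 14.6 to 32.1). The alternatives changed the pseudocount (0.1 or 1), the filter (none, or a mean of 1 RPKM), the variance trend (left out), the conditions fitted (only those compared), the scaling (median centring, quantile normalization, or depth without Rn45s) or the model (a term for replicate number, or voom on whole reads), and each library was left out in turn. A further marker list is not reported here.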

Additional observations from a re-analysis of the deposited data

How the results depend on the processing

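The passing calls of Gclm, Gclc and Gsr in +R against -R and in R+LE against +R held under every alternative tried, as did those of Slc3a2, Glrx and Gclc in R+LE against -R and of Slc3a2 and Glrx in +R against -R. Leaving out 1 library leaves a condition with 1, which is then assumed to vary like the others. The number of the 9 genes called in R+LE against +R was 2, and 3 with quantile normalization, which added Gsr (log2 fold change 1.01, adjusted p = 0.000192). It also depended on single libraries. Gclc was below 2-fold without +R replicate 2 and without R+LE replicate 1, at 0.96 and 0.91 on the log2 scale. Gsr was above 2-fold without +R replicate 1 and without R+LE replicate 2, at 1.03 and 1.06. The Glrx difference in R+LE against +R no longer passed without a filter (adjusted p = 0.173), without a variance trend (0.0535), in a fit of only the compared conditions (0.0999), or without -R replicate 1 (0.107), -R replicate 2 (0.107), +R replicate 2 (0.312) or R+LE replicate 1 (0.117). In R+LE against -R, 5 rather than 3 of the 9 genes passed with median centring, which added Slc7a11 and Gss, and 5 with quantile normalization, which added Gpx4 and Gss. There, Slc7a11 passed in 7 of the 10 alternatives that kept all libraries, with log2 values from 0.4 to 1.11. The limma fit without a filter was among them (adjusted p = 0.0336). In the filtered fits Slc7a11 was tested only because of its R+LE level, so their count is no independent support.

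Of the pathway genes, 15 passed in R+LE against -R, 9 without a filter, 24 with quantile normalization, and 8 to 21 with a library left out (8 without -R replicate 2). The split of higher to lower was 8 to 7, but 13 to 7 with median centring and 16 to 8 with quantile normalization. Against +R, 9 were higher and 5 lower in R+LE, but the lower count was 10 without R+LE replicate 1, 3 without either -R library, and 2 without +R replicate 1, without R+LE replicate 2 or without a filter. Of the 14 higher in +R against -R, the count was 8 without -R replicate 1 or +R replicate 1 and 9 without -R replicate 2. Values near 0 turned sign. In +R against -R, Gpx1 was -0.20 with quantile normalization, under which Gpx4 passed (0.29, adjusted p = 0.0382). In R+LE against +R, Gpx4 was 0.02 with median centring and 0.06 with quantile normalization, Gpx1 was 0.13 with quantile normalization, and with a library left out Gpx1 ran from -0.21 to 0.08 and Gpx4 from -0.22 to 0.17. In R+LE against -R, Gsr was 0.05 with median centring, 0.10 with quantile normalization and 0.07 without Rn45s in the depth, Gpx1 was -0.07 with quantile normalization, and with a library left out Gsr ran from -0.12 to 0.11, Gpx4 from -0.01 to 0.38 and Gclm from -0.34 to 0.09. These scalings moved the median of all tested genes by at most 0.07. The cause of these changes was not tested.

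Replicate numbers are shared between conditions, but the deviations of same-numbered libraries correlated by -0.05, 0.25 and 0.11 over genes, so they were not taken as pairs. With the replicate number as a block, Slc7a11 passed in R+LE against -R (log2 fold change 0.59, adjusted p = 0.0418), and no other call of the 9 genes changed.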

Other observations

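The genes of glutathione transport, of selenocysteine incorporation and of related peroxidase and glutaredoxin families were also measured, and those named here were chosen after their values were seen unless they were called. Of 5 transport genes, all tested, 1 passed as higher and 1 as lower in +R against -R, and 2 as higher and 1 as lower in R+LE against +R. Abcc1 (MRP1), which exports glutathione and its conjugates, measured 62.9 and 68.2 RPKM (-R), 44.1 and 39.6 (+R) and 86.4 and 72.7 (R+LE) (log2 fold change of R+LE against +R 0.92 ± 0.15, adjusted p = 0.000738 in limma). Abcc4 (MRP4) measured 5.99 and 6.90 RPKM (-R), 5.59 and 5.42 (+R) and 12.5 and 9.92 (R+LE) (0.95 ± 0.15, adjusted p = 0.00052). Slc25a39, the mitochondrial glutathione importer, was lower with LE (-0.51, adjusted p = 0.0326).

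Gpx1 and Gpx4 are selenoproteins. Of 7 genes of the selenocysteine machinery, all tested, 1 passed as higher and 1 as lower in +R against -R and 0 in R+LE against +R by limma, where 1 was lower at an unadjusted p below 0.05 and 0 passed with voom. Scly, which frees selenium from selenocysteine, was called, at 12.4 and 10.6 RPKM (-R), 6.11 and 4.71 (+R) and 6.4 and 5.68 (R+LE) (+R against -R -1.03 ± 0.15, adjusted p = 6.15e-05). Of the other 3 glutaredoxins, Glrx3 and Glrx5 were higher with RANKL, by 0.67 and 0.70 on the log2 scale (adjusted p = 0.00251 and 0.00151), whereas Glrx itself was lower. Of 6 other glutathione peroxidases 2 were tested, and Gpx3 was lower with RANKL (log2 fold change -0.71, adjusted p = 0.00486).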
